A study of Drosophila melanogaster with 19 samples.

Results

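T2 neurons of the Drosophila melanogaster optic lobe, where visual signals are processed, were set against 16 other single cell types. The T2 members are the 3 libraries of the 1 GEO sample whose label gives T2 as the cell type, out of 57 libraries and 19 samples in all. They were compared with the 48 libraries of T1, T3 and T5, Tm2, Tm3, Tm9, Tm5c and Tm5ab, the Mi1 and C types (C3, C2), Lawf2 and Lawf1, and Dm12, Dm8 and Dm2, 3 for each type. Sorted neurons and a mixture of T1 and Tm1 cells were left out of the contrast. In every group a Gal4 driver line was crossed to UAS-Red Stinger, a red fluorescent protein that marks nuclei, and red cells were sorted from dissociated brains of adults aged 3 to 6 days. All groups, the comparison types included, therefore carried a Gal4 driver and this transgene. The labels used here do not name the drivers, so the purity of T2 rests on a driver that is not described. GEO lists 1 sample per type, and the p-values below measure the spread between libraries, which may be technical.

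T2 cells are columnar neurons whose cell bodies lie behind the medulla and whose axons end in the lobula, and they resemble T3 cells in shape. Neurons of this kind find their partners with cell surface proteins of the immunoglobulin superfamily, among them the Beat proteins, which bind Side proteins, and the Dpr proteins, which bind DIP proteins. A cholinergic neuron makes acetylcholine with choline acetyltransferase (ChAT) and retrieves choline with the choline transporter (ChT). Nicotinic receptors answer to acetylcholine in the neurons that receive it.

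T2 libraries 2 and 3 were the shallowest of the series, while T2 library 1 was deeper than a library of Mi1. Reads in genes numbered 9444398, 2531086 and 602175 in T2 libraries 1 to 3, where the other 48 libraries held between 6.675 and 30.972 M (1 M is 1e6) with a median of 22.0195 M. Between 6252 and 9036 genes had a read in a T2 library, against 9906 to 12785 in the others. The T2 profiles also leaned towards long genes. Per doubling of exon length, the log2 CPM (read count scaled to a library total of 1e6) of a T2 library rose by 0.70 to 0.85 relative to the mean of the types, while in the other libraries this slope lay between -0.40 and 0.21, so the groups did not overlap. The plot of depth and length trend shows both.

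**Figure D1:**
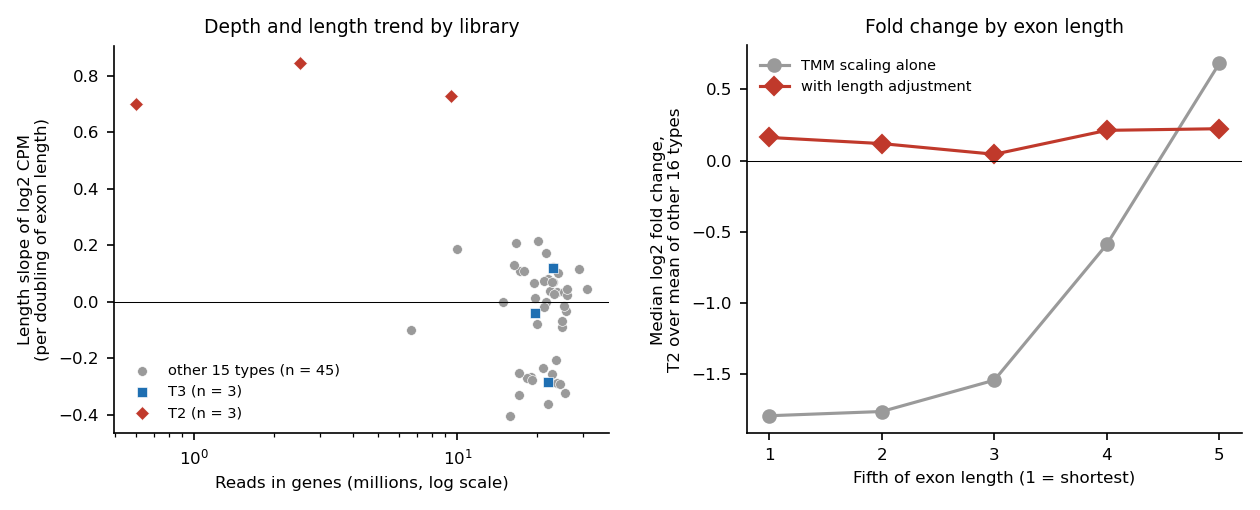
Left, each point is a library, with its reads in genes (M, log axis) against the slope of its log2 CPM on exon length, for T2, T3 and the other 15 types. Right, the median log2 fold change of T2 over the mean of the other 16 types in 5 equal classes of exon length, for genes with a mean of at least 10 adjusted CPM. With TMM scaling alone the median went from -1.79 in the shortest class to 0.68 in the longest, and with the length adjustment it stayed between 0.04 and 0.22.

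For this reason a smooth trend of log2 CPM on exon length was taken out of every library, and levels are given as adjusted CPM, that is CPM divided by that trend. A gene was called when its adjusted p (edgeR quasi-likelihood test, Benjamini-Hochberg) was under 0.05 and its log2 fold change was at least 1 in either direction. The same test was run with TMM scaling alone, a standard scaling that ignores length, and "in both scalings" means called in the same direction in both. The smooth trend also sets the level of each library, so the scalings differ in level as well as in length. The fold change averages the 16 other types on the log scale, so a gene that is silent in most types and high in a few can be called higher in T2. Where no T2 library had a read, 3 reads over the T2 group were taken as the upper limit, equal to 0.239 CPM before the adjustment. A statement of at least N-fold lower sets this limit against the log-scale mean of the 16 types, with a type below the limit counted at the limit. Such limits, and all depths, cover counting error only, since the reads carry no molecular identifiers. In bulk samples such as these, fewer cells of a type and less RNA per cell cannot be told apart.

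The 4 genes given as T2 markers were high in T2, and 3 of them were also high in T3 or T5. The levels that follow are a description, since these genes mark the type. acj6, a POU homeodomain transcription factor (chromosome X, 15350239 to 15379064, BDGP6), was at 1662, 1349 and 1441 adjusted CPM in the T2 libraries and between 0.238 and 1389 in the other 48, with a median of 3.43. T2 overlapped with T5, whose mean was 1214 ± 155 (SD, n = 3 libraries), and lay above T3, at 826 ± 326. The 14 remaining types had means of at most 6.81 adjusted CPM. beat-Ic, a Beat surface protein (2L, 16000291 to 16041703), was at 4059, 3555 and 2496 adjusted CPM in T2 and between 0 and 2667 elsewhere, with a median of 3.87. Its next highest type was T3, at 1951 ± 653, which overlapped with T2, and Tm5ab followed at 343 ± 46.2.

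nAChRalpha6, a nicotinic receptor subunit (2L, 9793317 to 9886250), was at 14437, 17900 and 16494 adjusted CPM in T2 and between 0.863 and 20097 in the others, with a median of 150. The T2 range lay inside that of T3, whose mean was 13853, and both stood apart from Dm2, the next type, at 911 ± 288. ChT (3R, 18680604 to 18686739) was at 2396, 2222 and 1675 adjusted CPM in T2 and between 0.129 and 870 in the others, with a median of 59.2. Of the 4 markers, ChT was the gene whose T2 libraries lay above all 48 others on both scales. In the annotation 69.5% of its exon bases also lie in exons of CG46318, so the split of reads between this pair is uncertain. In sorted neurons the same genes had means of 105 ± 12.6 for acj6, 245 ± 14.6 for beat-Ic, 664 ± 73.7 for nAChRalpha6 and 277 ± 33.2 for ChT, all below T2.

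**Figure D2:**
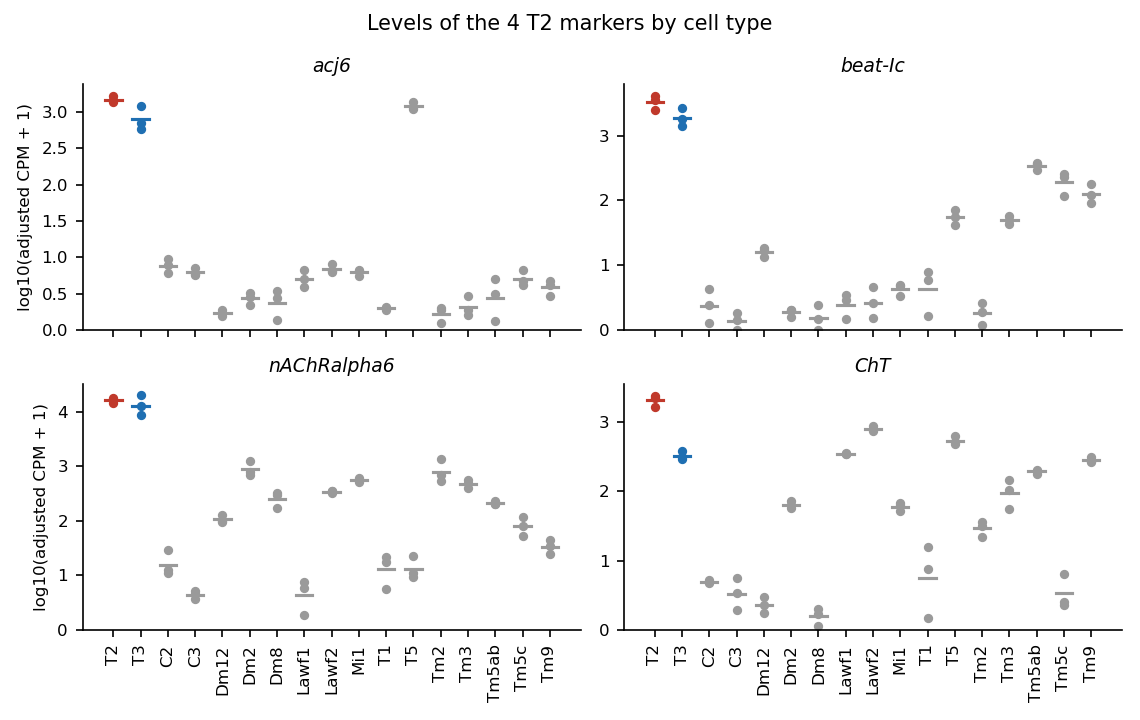
Each panel shows a marker of T2, with cell types on the horizontal axis and log10(adjusted CPM + 1) on the vertical axis, points for the 3 libraries of each type and bars for their mean. acj6 was high in T2, T3 and T5, beat-Ic and nAChRalpha6 in T2 and T3, and ChT was highest in T2.

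The T2 libraries resembled each other more than any other type. Over 6386 genes with a mean of at least 10 adjusted CPM, the mean Pearson r of their log2 levels was 0.875 among T2 libraries and 0.612 with T5, 0.581 with T3 and 0.425 with C2, the lowest of the types. These correlations run across genes, which are not independent replicates, and T2 libraries share their length trend, which was taken out here, and in 2 of 3 cases a low depth.

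Across 12569 genes tested, 3098 (24.6%) were higher and 1543 (12.3%) were lower in T2 than in the mean of the other 16 types. With TMM scaling alone the split turned to 2325 (18.5%) higher and 2823 (22.5%) lower. When the length trend was removed but TMM set the level of each library, 2277 were higher and 2485 lower. In both scalings 2081 (16.6%) were higher and 1420 (11.3%) lower. Of the genes called higher in both, 1675 had their highest mean of the 17 types in T2, and 199 had T2 in second place. Every T2 library lay above all 48 others on both scales for 541 genes (4.30%) and below them for 1348 (10.7%). No T2 read was found for 3212 tested genes, and the median log2 fold change over all tested genes was -0.35, or 0.00 with such genes set to their limit. TMM scaling moved that median to -1.24. Among 6386 genes with a mean of at least 10 adjusted CPM, 1361 were higher and 1400 lower in both scalings, with a median of 0.17. Without library 1, the deepest of T2, 844 genes were lower, and in both scalings 1382 were higher and 732 lower.

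The genes that led T2 were surface proteins, an apoptosis gene, a receptor and genes of unknown function. Separation from all 48 libraries is part of how they were chosen, and their levels are a description. They are the 12 of largest fold change among 345 candidates that were called in both scalings, separated from all 48 libraries, reached 20 CPM and shared few exon bases with other genes. beat-Ia, whose product steers motor axons in the embryo by binding Side, was at 2422, 2528 and 1898 adjusted CPM in T2 and between 0 and 90.3 in the others, with a median of 1.45. No other type came near it, Tm5ab having the next mean of 85.2. The log2 difference was 10.88 (SE 0.16; edgeR adjusted p = 6.8e-50). skl (sickle), a gene of the reaper family of cell death activators, was at 1381, 2978 and 1500 adjusted CPM against 0 to 44.0, with a median of 3.59. T5 had the next mean, 36.6, and T2 exceeded the 16 types by 9.21 on the log2 scale (SE 0.21; edgeR adjusted p = 2e-41).

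Among the uncharacterised leaders, CG14142 was at 2366, 2746 and 1770 adjusted CPM in T2, a log2 difference of 9.96 (SE 0.16). CG34025 was at 3543, 3924 and 4179 adjusted CPM in T2 against a highest value of 66.9, a log2 difference of 8.76 (SE 0.13). CG14082 was at 1599, 2096 and 1150 adjusted CPM against a highest value of 148, a log2 difference of 9.31 (SE 0.15). These 3 genes had no overlap between T2 and any other type. Below T2, CG14082 had means of 140 adjusted CPM in T5 and 93.1 in T3. CG9896 was at 22640, 34817 and 21190 adjusted CPM in T2, also without overlap. It was present in several other types, with means of 3621 in T3, 1927 in Tm3, 1057 in Mi1 and 964 in T5.

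Of the noncoding leaders, lncRNA:CR43803 had the largest fold change of the 12, at 447, 938 and 675 adjusted CPM in T2 and at most 56.0 elsewhere, the highest of these in T3. Its log2 difference was 11.73 (SE 0.42; edgeR adjusted p = 1.7e-27). lncRNA:CR44471 was at 137, 296 and 201 adjusted CPM against at most 28.3. CCKLR-17D1, a receptor for the cholecystokinin-like peptide drosulfakinin, was at 151, 206 and 155 adjusted CPM against at most 69.7, the highest of these in C3. The remaining leaders were Sytbeta, a synaptotagmin, with a log2 difference of 9.11, CG34107 with 9.99 and beat-Va with 7.80. CG34107 and lncRNA:CR44471 rested on 14 and 20 reads in the shallowest T2 library.

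**Figure D3:**
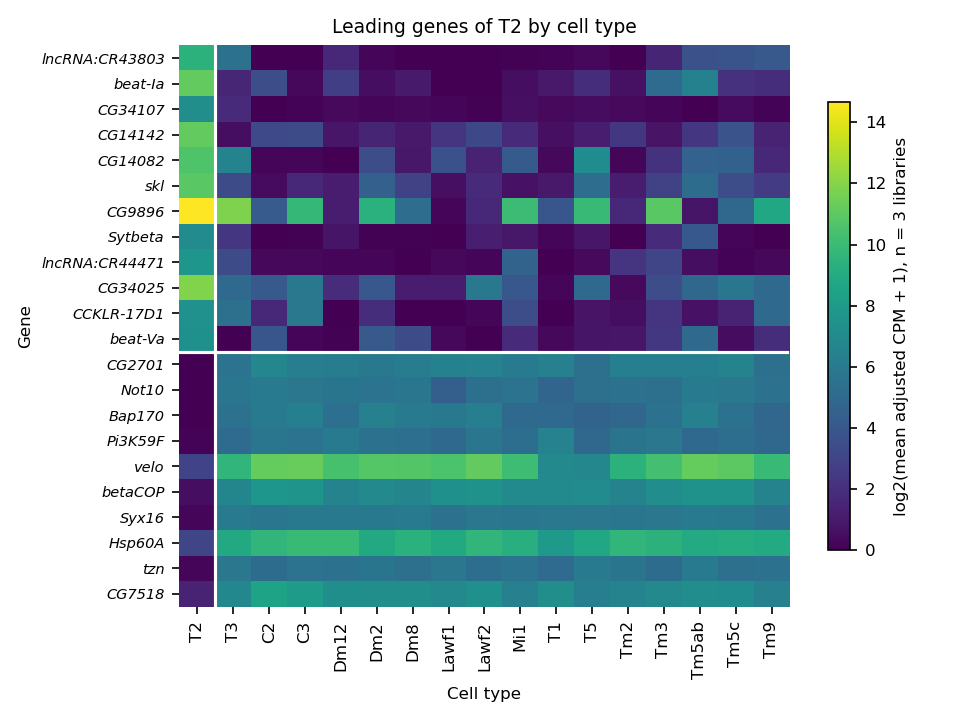
Heat map of log2(mean adjusted CPM + 1) over 3 libraries, with genes as rows and the 17 types as columns, the 12 leading higher genes above the white line and the 10 leading lower genes below it. The upper genes were bright in T2, with lncRNA:CR43803, CG14082 and CG9896 also visible in T3, and the lower genes were dark in T2, with levels that differed between the other types, velo from a mean of 111 in T5 to 2499 in C3.

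The genes that led in the other direction were present in all the other types, which was a condition of their choice. In T2 they were low or without reads. The 10 are those of largest negative fold change among 508 candidates that had at least 20 CPM in each of the other types. Not10, a subunit of the CCR4-NOT complex that shortens mRNA tails, and Bap170, a subunit of a SWI/SNF chromatin remodelling complex, had no read in any T2 library. Not10 lay between 16.9 and 73.1 adjusted CPM in the other 48 libraries and was at least 43.8-fold lower in T2 than the log-scale mean of the 16 types. For Bap170 the other libraries held 16.3 to 101 adjusted CPM and the limit was at least 135-fold lower. betaCOP, a coat protein of transport vesicles, had 5, 0 and 0 reads in T2 against 66.4 to 215 adjusted CPM elsewhere, a log2 difference of -6.99 (SE 0.57; edgeR adjusted p = 2e-15).

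velo (veloren), a SUMO protease, was measured in all T2 libraries, at 5.57, 7.27 and 7.80 adjusted CPM, and lay between 104 and 3072 in the others, with a median of 1434. The log2 difference was -7.48 (SE 0.26; edgeR adjusted p = 3e-31). Hsp60A, the mitochondrial chaperonin, was at 4.67, 11.4 and 5.79 adjusted CPM against 229 to 1030, a log2 difference of -6.61 (SE 0.34). CG2701 had no T2 read, and Pi3K59F, Syx16 and tzn had 1 read each over the T2 group. CG7518 had a log2 difference of -6.49. By the way they were chosen, these 10 genes lay lower in all T2 libraries than in all others. Low depth and the length trend moved with this result. Their part in it was not tested.

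The Beat genes included members of the leading group, beat-Ia and beat-Va. Of 21 tested Beat and Side genes 15 were higher and 4 lower. In both scalings these numbers were 14 and 4, beside 16.6% and 11.3% of all genes tested. The median log2 fold change was 2.52, beside -0.35 over all genes tested and 0.17 over genes with a mean of at least 10 adjusted CPM. Among the higher genes, beat-Ic is a marker given for T2. The cluster beat-Ia, beat-Ib and beat-Ic was high as a whole. beat-Ib was at 3756, 3406 and 2489 adjusted CPM in T2 and between 0 and 1267 elsewhere, with a median of 2.45, a log2 difference of 8.93 (SE 0.15; edgeR adjusted p = 1.5e-48). On the adjusted scale no other library reached T2, and the highest were those of T3, with a mean of 1082. beat-Va was at 160, 184 and 155 adjusted CPM in T2 and at most 39.3 elsewhere, without overlap.

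beat-IIIc was at 1467, 1218 and 776 adjusted CPM in T2 against at most 561, and beat-IV at 579, 508 and 456 against at most 262. Their log2 differences were 6.86 and 6.00 (SE 0.20 and 0.24). The log2 differences of the higher Side genes were smaller, with side-V at 2.65, side at 2.52, side-II at 2.40 and side-III at 2.16 on the log2 scale. None of these was highest in T2. The 4 lower members were beat-IIa, beat-IIb, side-IV and side-VIII, and the call of beat-IIb was lost without T2 library 1. beat-IIa had no T2 read, lay between 0.781 and 820 adjusted CPM in the other libraries with a median of 115, and was at least 133-fold lower than the log-scale mean of the 16 types (edgeR adjusted p = 7e-11). side-VIII had 7.85, 30.2 and 50.6 adjusted CPM in T2 against a median of 158, a log2 difference of -2.71 (SE 0.38).

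Among the Dpr genes and the genes of their DIP partners, 18 of 32 tested were higher and 2 lower, the same numbers in both scalings, beside 16.6% and 11.3% of all genes tested, with a median of 2.02. For 6 of them, all Dpr genes, every T2 library lay above every other library on both scales, beside 4.30% of all genes tested. dpr7 was at 8372, 8356 and 7046 adjusted CPM in T2 and between 215 and 874 in the others, with a median of 335, a log2 difference of 4.46 (SE 0.08; edgeR adjusted p = 5.3e-43). dpr21 was at 7432, 7452 and 4936 adjusted CPM against 42.7 to 321, a log2 difference of 5.44 (SE 0.09; edgeR adjusted p = 7.4e-46). Both genes were present in every type at a lower level and had no overlap with T2.

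dpr1, which is needed for salt aversion, was at 3520, 3748 and 2313 adjusted CPM in T2 and between 0.219 and 1562 elsewhere, the highest of these in Lawf1. T2 exceeded the mean of the types by a log2 difference of 6.73 (SE 0.15). dpr18 was at 2461, 2680 and 1609 adjusted CPM against at most 739, a log2 difference of 4.93 (SE 0.13). dpr2, at 381, 237 and 152 adjusted CPM, was called higher with a log2 difference of 5.27, yet T2 ranked 4 of 17 behind Lawf1 and others.

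On the side of the DIP proteins, DIP-gamma, DIP-delta, DIP-epsilon, DIP-eta, DIP-theta and DIP-lambda had no T2 read, and neither had dpr5 or dpr15. DIP-gamma reached 1614 adjusted CPM in Dm8 and DIP-theta 1420 in Tm3, but most types had little of either, and neither gene was called. dpr11 was at 0.540, 13.2 and 8.12 adjusted CPM in T2 against a median of 89.3, a log2 difference of -4.50 (SE 0.71; edgeR adjusted p = 3.7e-07). dpr5 was the second lower call, and it was lost without T2 library 1.

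**Figure D4:**
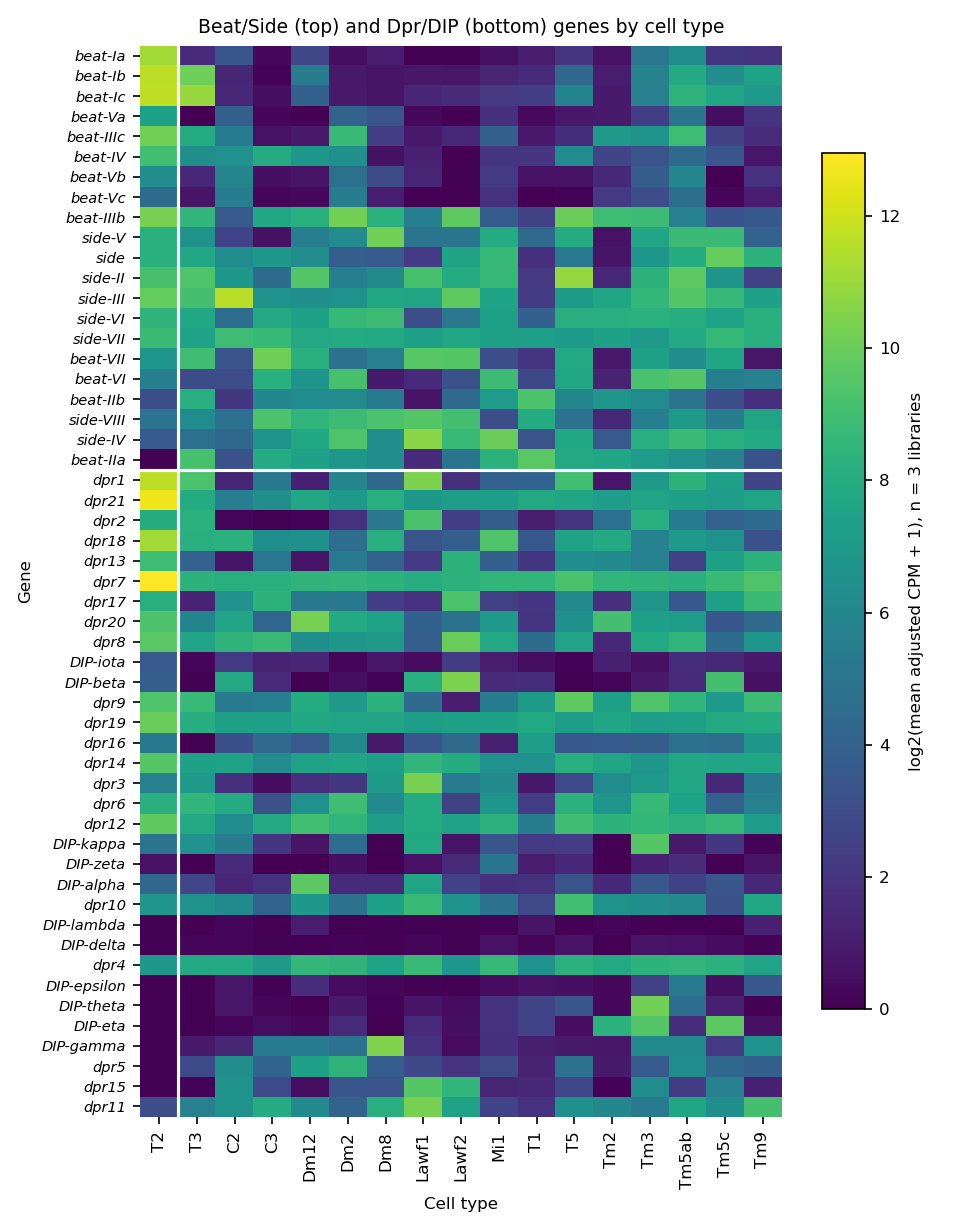
Heat map of log2(mean adjusted CPM + 1) over 3 libraries for 21 Beat and Side genes (above the line) and 32 Dpr and DIP genes (below), with the 17 types as columns, each block ordered by fold change, or by its limit for a gene without a T2 read. T2 and T3 shared beat-Ib and beat-Ic but not beat-Ia or beat-IIa, and dpr7 and dpr21 were brightest in T2.

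Other adhesion and guidance proteins split by scaling. Of 42 tested, 20 were higher in both scalings and 1, fred, lower, beside 16.6% and 11.3% of all genes tested. The length adjustment alone gave 20 and 4 and TMM scaling alone 28 and 1. With the length trend removed but the level of each library set by TMM, the counts were 10 and 8. tutl (turtle), an immunoglobulin protein of dendrites and axon terminals, was at 4832, 3854 and 4908 adjusted CPM in T2 and between 3.85 and 2628 elsewhere, with a median of 1396. Its log2 difference was 3.20 (SE 0.11; edgeR adjusted p = 2.1e-30), without overlap. Tl (Toll) was at 1133, 1270 and 976 adjusted CPM against at most 728 in Tm2, a log2 difference of 4.62 (SE 0.14).

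Guidance ligands and receptors covered a wide range. NetA, a netrin, was at 18.6, 5.22 and 0 adjusted CPM against a median of 0.229 and at most 32.4, in T3. It had a log2 difference of 5.39 (SE 0.87), ranked 3 of 17, and lost its call without T2 library 1. Sema2a, a secreted semaphorin, was at 390, 323 and 543 adjusted CPM against 75.2 to 201, a log2 difference of 1.60 (SE 0.13). The transmembrane semaphorin Sema1a and its receptor PlexA had log2 differences of 1.04 and 1.51 (SE 0.12 and 0.11). All T2 libraries lay above all others for both genes and for Sema2a. Sema1a was at 0.24 with the TMM level and at 0.96 without T2 library 1, both under the threshold of 1. klg (klingon) and robo3, the latter a receptor for Slit, had log2 differences of 4.90 and 3.97, and for each of them T2 ranked 3 of 17 below Tm5ab.

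Of the genes of acetylcholine use, 3 were tested, ChAT, ChT and Ace. ChT is a marker given for T2, and its level is described above. ChAT and Ace were also higher in both scalings, as were 16.6% of all genes tested. With the TMM level 2 of the 3 genes were called. ChAT was at 847, 1126 and 657 adjusted CPM in T2 and between 0 and 2111 elsewhere, with a median of 410. Its log2 difference was 3.10 (SE 0.19; edgeR adjusted p = 4.8e-20), and T2 ranked 4 of 17, behind Tm9, Mi1 and Tm2. Ace, the acetylcholinesterase that ends the signal, was at 2817, 3094 and 2986 adjusted CPM against 60.9 to 3832, the highest of these in Tm2, with a log2 difference of 1.77 (SE 0.09).

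Genes of other transmitters gave a mixed picture, with 5 higher and 1 lower in both scalings of 18 tested. Beside this stand 16.6% and 11.3% of all genes, and the median of the list was 0.88. VGlut, the vesicular glutamate transporter, had no T2 read, while Dm8, Dm12 and Tm5c had means of 3197, 2342 and 1927 adjusted CPM. The median over the other 48 libraries was 6.59. T2 was at least 57.4-fold lower than the log-scale mean of the 16 types (edgeR adjusted p = 0.0024), a call that was lost without T2 library 1. Gad1, which makes GABA, was at 221, 212 and 105 adjusted CPM in T2 and had a median of 4.22 in the others, with C3 and C2 at means of 11060 and 3333. T2 ranked 3 of 17, below the C types and above T1, whose mean was 26.4, and the log2 difference from the 16 types was 4.41 (SE 0.38; edgeR adjusted p = 1.5e-14). VGAT, which loads GABA into vesicles, was called with the length adjustment, and not by TMM scaling alone, where its log2 difference was 0.53.

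Tbh, which makes octopamine from tyramine, was at 488, 398 and 222 adjusted CPM in T2 and between 0 and 426 elsewhere, with a median of 4.86. T3, with a mean of 408, overlapped with T2, and the log2 difference from the 16 types was 5.21 (SE 0.18). Tdc2, which makes the tyramine that Tbh uses, had 1.70, 0 and 0 adjusted CPM and was not called. Pu (Punch), which starts the synthesis of the cofactor of tyrosine hydroxylase, was at 159, 191 and 221 adjusted CPM against at most 50.8, a log2 difference of 5.16 (SE 0.48). Vmat, the vesicular monoamine transporter, had no T2 read and was not called.

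Among the receptors for acetylcholine, nAChRalpha6 led the nicotinic subunits, but it is a marker given for T2. Counting it, 5 of 10 subunits were higher and 1 lower in both scalings, beside 16.6% and 11.3% of all genes. The list median was 1.29. With the TMM level 2 were higher and 3 lower, and the median was 0.49. nAChRalpha1, nAChRbeta1, nAChRalpha5 and nAChRalpha4 had log2 differences of 2.09, 1.78, 1.32 and 1.27. nAChRalpha2 was lower, at 25.6, 13.8 and 18.1 adjusted CPM against a median of 84.2, a log2 difference of -1.31 (SE 0.36; edgeR adjusted p = 0.0018). Without T2 library 1 its edgeR adjusted p was 0.051. nAChRalpha3 passed in the length-adjusted scaling at -2.10 and not in the other at -0.94. Where TMM set the level on top of the length adjustment, 2 subunits remained higher and 3 were lower. None of the 3 muscarinic receptors was called by edgeR, 1 being higher at an unadjusted p under 0.05, while the DESeq2 Wald test called 1 lower. mAChR-B and mAChR-C had no T2 read.

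Rdl, the ligand-gated chloride channel for GABA, was at 9959, 8545 and 8674 adjusted CPM in T2 and between 67.0 and 6833 elsewhere, with a median of 2534. It had no overlap with the other types, and the log2 difference was 2.05 (SE 0.15; edgeR adjusted p = 3.8e-17). The metabotropic subunits moved apart, with GABA-B-R1 higher at 1.19 and GABA-B-R2 lower at -1.76 on the log2 scale. GABA-B-R2 was at 120, 59.8 and 141 adjusted CPM in T2, below the lowest other library at 186. Of 7 GABA receptor genes, 3 were higher and 1 lower in both scalings, beside 16.6% and 11.3% of all genes. The median of the list was 0.66, and it turned to -0.29 with TMM scaling alone and to -0.09 with the TMM level.

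Of 15 glutamate receptor genes 6 were higher and 1 lower in both scalings, beside 16.6% and 11.3% of all genes, with a median of 0.92. With the TMM level 4 were higher and 3 lower with a median of 0.22, and without T2 library 1 the median was -0.17. mGluR, the metabotropic receptor, was at 375, 836 and 432 adjusted CPM in T2 against a median of 9.45, a log2 difference of 5.18 (SE 0.19), and only Mi1 had a higher mean, 663. Ekar, a kainate-type receptor, was at 275, 378 and 295 adjusted CPM against at most 165, a log2 difference of 4.42 (SE 0.24). GluClalpha, the inhibitory glutamate-gated chloride channel, had a log2 difference of 2.55 (SE 0.11), T2 being second to T5. GluRIIC was also among the higher genes, but its call was lost with the TMM level and when any T2 library was left out. The lower call, GluRIA, rested on 3, 9 and 0 T2 reads and was lost without T2 library 1 or without library 2 of the other types.

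Photoreceptors release histamine, and of its receptors HisCl1 was higher while ort was not called. HisCl1 was at 221, 106 and 90.7 adjusted CPM in T2 and between 2.75 and 24.2 elsewhere, with a median of 12.2. On the adjusted scale every T2 library lay above the others, and the log2 difference was 4.05 (SE 0.35; edgeR adjusted p = 1.1e-14). ort was at 12.8, 4.01 and 0 adjusted CPM, and T2 ranked 10 of 17.

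Receptors for monoamines included members high in T2 and a member that was missing. In both scalings 6 of 17 were higher and 1 lower, beside 16.6% and 11.3% of all genes, with a median of 0.85. With the TMM level 5 were higher and 2 lower, and the median was 0.03. TyrR, a tyramine receptor, was at 213, 208 and 244 adjusted CPM against at most 135, the highest of these in T3, a log2 difference of 5.75 (SE 0.31; edgeR adjusted p = 2.3e-24). The serotonin receptor 5-HT7 was at 317, 459 and 561 adjusted CPM against at most 187 in Mi1, a log2 difference of 4.88 (SE 0.23; edgeR adjusted p = 2.4e-24). Both were free of overlap. Dop2R, a dopamine receptor, was at 1227, 954 and 1125 adjusted CPM, second to Tm3, with a log2 difference of 4.79 (SE 0.20). 5-HT1A had no T2 read and reached 1380 adjusted CPM in T1, with a median of 107, so that T2 was at least 94.6-fold lower than the log-scale mean of the 16 types (edgeR adjusted p = 7.8e-07). That call was lost when all libraries were thinned to the depth of the smallest.

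Transcription factors that set neuron identity were shared between T2 and different types. Of 73 listed factors 69 were matched and 61 tested, 14 were higher in both scalings and 0 lower (edgeR), and 25 had no T2 read. The shares over all genes tested were 16.6% higher and 11.3% lower in both scalings, and 24.6% higher with the length adjustment. At an unadjusted p under 0.05 the length-adjusted test had 1 lower factor, TMM scaling alone called 1 lower and the DESeq2 Wald test 2. TfAP-2 was at 433, 467 and 301 adjusted CPM in T2 and between 0 and 292 elsewhere, with a median of 0.284, a log2 difference of 9.81 (SE 0.25; edgeR adjusted p = 1.8e-42). Tm2, with a mean of 276, came next, and no other type exceeded the 11.4 of T3. pdm3, a POU factor like acj6, was at 1975, 3020 and 4497 adjusted CPM in T2, overlapping with Tm2 and Tm9, whose means were 4771 and 3250. The log2 difference of pdm3 was 8.39 (SE 0.18).

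Drgx, a paired-type homeodomain factor, was at 423, 677 and 375 adjusted CPM in T2, with T5 above it at a mean of 987 and T3 below it at 274. Drgx had a log2 difference of 9.55 (SE 0.30). The other types had means of at most 3.51. Thus acj6 and Drgx were shared with T3 and T5, TfAP-2 and pdm3 with Tm2, and T2 was the type that had all 4 above 300 adjusted CPM.

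SoxN, an HMG-box factor, was at 399, 400 and 345 adjusted CPM in T2 and at a mean of 0.940 in T3, with a log2 difference from the 16 types of 2.42 (SE 0.18). bab2 was at 304, 55.9 and 137 adjusted CPM, a log2 difference of 4.24 (SE 0.29), and Lim1 had a log2 difference of 4.82 (SE 0.54), with T5 far above at a mean of 1382 and the call lost without T2 library 1. unc-4 was the listed factor with all T2 libraries above all others on both scales, but at 2.75, 20.8 and 4.55 adjusted CPM it rested on 9, 17 and 1 reads. The higher calls of Ubx, eyg, Antp, salr and svp each had 0 reads in at least 1 T2 library, and eyg, salr and svp changed sign without library 1, where the call of Antp was lost.

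Of 20 potassium channel genes 9 were higher and 1 lower in both scalings, beside 16.6% and 11.3% of all genes tested, with a median of 1.26. With the TMM level 8 were higher and 2 lower, and the median was 0.41. eag, a voltage-gated channel subunit, was at 1026, 962 and 837 adjusted CPM in T2 and between 0.819 and 775 elsewhere, with a median of 222. The log2 difference of eag was 3.17 (SE 0.15; edgeR adjusted p = 7.1e-25), without overlap. SLO2, a sodium-activated channel, was at 1356, 1428 and 1406 adjusted CPM against at most 1256 in Tm2, a log2 difference of 2.76 (SE 0.15). Task6, a leak channel, was at 756, 536 and 520 adjusted CPM against at most 335, a log2 difference of 1.93 (SE 0.15). Shab and Shawl were also higher, Shab by 2.94 on the log2 scale, both with overlap, and KCNQ was lower at -1.77.

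None of 7 tested innexins, the proteins of gap junctions, was called in both scalings by edgeR, with 1 higher at an unadjusted p under 0.05 and 2 called higher by the DESeq2 Wald test. Of 10 tested calcium, sodium, cation and leak channel genes 2 were higher and 2 lower in both scalings, near the 16.6% and 11.3% of all genes. Their median was 0.10, and it was 1.10 with TMM scaling alone and -0.71 with the TMM level. The lower pair, unc79 and unc80, encodes partners of the sodium leak channel Narrow abdomen (na). unc79 was at 99.1, 107 and 70.1 adjusted CPM in T2 and between 572 and 2776 elsewhere, with a median of 941, a log2 difference of -3.42 (SE 0.16; edgeR adjusted p = 1.2e-24). unc80 was at 23.1, 20.3 and 17.1 adjusted CPM against 171 to 1290, a log2 difference of -4.62 (SE 0.27; edgeR adjusted p = 1e-20). Both were without overlap. The channel gene na itself was at 401, 341 and 370 adjusted CPM against a median of 425 and was not called, and with the TMM level its log2 difference was -0.78. Ca-alpha1T, the T-type calcium channel, was higher at 3620, 3823 and 4115 adjusted CPM, ranking 3 of 17 with Tm2 highest, and with a log2 difference of 2.64 (SE 0.21).

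T2 libraries held reads of several neuropeptides. Of 27 tested precursors 9 were higher and 0 lower in both scalings (edgeR), beside 16.6% and 11.3% of all genes. No T2 read was found for 10 of them, and the median of 0.41 turned to -1.51 with TMM scaling alone. Tk, the tachykinin precursor, was at 5003, 5680 and 3863 adjusted CPM in T2 and between 0 and 4400 elsewhere, with a median of 4.53. Mi1 and T3 had it too, at means of 3665 and 3153, and overlapped with T2, and the log2 difference from the 16 types was 7.88 (SE 0.19; edgeR adjusted p = 2.6e-38). spab was at 746, 679 and 668 adjusted CPM against at most 600, a log2 difference of 6.44 (SE 0.34), and Ms (myosuppressin) at 46.8, 239 and 46.7 against at most 8.01, a log2 difference of 5.98 (SE 0.55).

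Without T2 library 1 the length-adjusted count of higher precursors went from 11 to 6. AstA rested on 28.4, 0 and 0 adjusted CPM in T2 and changed sign without that library. Of 33 tested peptide receptors 11 were higher and 1 lower in both scalings, beside 16.6% and 11.3% of all genes, with a median of 0.96. AstA-R1, an allatostatin A receptor, was at 495, 548 and 313 adjusted CPM against a median of 10.5 and a highest value of 468 in Mi1, a log2 difference of 4.65 (SE 0.19). NPFR and CCHa2-R, receptors for neuropeptide F and CCHamide-2, were higher by log2 differences of 6.26 and 6.00. Against T3, with means of 81.5 and 73.1 adjusted CPM, they differed by -0.10 and -0.37 and were not called. MsR1, a receptor for myosuppressin, was lower at -5.81 on 1 T2 read, and the call was lost without T2 library 1.

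Genes of the synapse and of all neurons were present. Of 16 tested, 5 were higher and 0 lower in both scalings (edgeR), beside 16.6% and 11.3% of all genes. With the length adjustment 7 were higher, and 2 were lower at an unadjusted p under 0.05. TMM scaling alone had 11 higher and the TMM level 3, with 2 lower there, and the median of 0.79 turned to -0.03. Snap25, a SNARE protein of vesicle fusion, was at 13344, 14284 and 13371 adjusted CPM in T2 and between 578 and 2954 elsewhere, with a median of 1134, a log2 difference of 3.52 (SE 0.09; edgeR adjusted p = 2e-35). It was without overlap, and so was nSyb, another SNARE protein, with a log2 difference of 1.49 (SE 0.11). elav, the general marker of neurons, was at 818, 984 and 657 adjusted CPM against 350 to 818 and was not called at a log2 difference of 0.69, which was 1.81 with TMM scaling alone and -0.13 with the TMM level. brp, the active zone scaffold, was not called at -0.49, and its sign turned to 0.80 with TMM scaling alone.

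Of 10 activity-regulated genes 7 were higher and 1 lower in both scalings, beside 16.6% and 11.3% of all genes, with a median of 1.87. With the TMM level 5 were higher and 2 lower, and the median was 1.03. Hr38, a nuclear receptor induced by activity, was at 1216, 1972 and 2565 adjusted CPM in T2 against a median of 590, and C3, with a mean of 2647, was above it. The log2 difference was 1.60 for Hr38 (SE 0.34) and 2.15 for sr (stripe, SE 0.41). Hr38 was no longer called with the TMM level, at 0.72, nor with T2 library 1 alone, at 0.97, and sr was not called with T2 library 1 alone. hig (hikaru genki), a synaptic cleft protein, was at 3138, 4196 and 3551 adjusted CPM against at most 1260, a log2 difference of 3.21 (SE 0.12), without overlap. The lower gene was Jra, the fly Jun, at -1.94, and it was no longer called without T2 library 1. In the Notch pathway 3 of 8 genes were higher in both scalings, Hey, Ser and mam, beside 16.6% of all genes. With the TMM level 2 were higher and 1 lower. The call of Ser was lost in several settings, among them the TMM level and the fit without T2 library 3. Hey, a target of Notch in newborn neurons, was at 900, 408 and 642 adjusted CPM, second to C2, with a log2 difference of 4.85 (SE 0.26), and mam was higher by 2.37.

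Nuclear genes of protein synthesis, respiration and protein breakdown were often lower in T2. Over all genes tested, 11.3% were lower and 16.6% higher in both scalings. Of 83 tested cytosolic ribosomal protein genes 43 were lower and 4 higher in both scalings, with a median of -1.36. Of 70 mitochondrial ribosomal protein genes 42 were lower and 1 higher in both, with a median of -1.74, and 15 were lower without T2 library 1. For 79 nuclear genes of the respiratory chain these numbers were 30 and 6, and TMM scaling alone called 55 lower. Their median was -0.996, or -0.64 with genes lacking T2 reads at their limit. Of 43 proteasome genes 24 were lower and 1 higher in both, with a median of -2.28, or -1.18 with genes lacking T2 reads at their limit, and 13 were lower without T2 library 1.

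Members of 1 complex did not move alike. UQCR-C1 and UQCR-C2, the core subunits of complex III, were lower by log2 differences of -5.08 and -5.72, while UQCR-11 of the same complex was at 7347, 8139 and 6237 adjusted CPM against 106 to 1648, a log2 difference of 4.91. UQCR-C2 was at 6.33, 5.38 and 8.13 adjusted CPM in T2 and between 143 and 632 elsewhere. RpL38 was at 3110, 3093 and 2293 adjusted CPM against at most 289, a log2 difference of 4.91 (SE 0.14), while RpL23A had 1 T2 read and was lower at -7.62. UQCR-11 and RpL38 are short genes, for which the length adjustment is large, and their log2 differences were 3.04 and 2.84 with TMM scaling alone.

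Reads of mitochondrially encoded genes went the other way. Of 18 tested 16 were higher and 0 lower in both scalings (edgeR; 0 lower also at an unadjusted p under 0.05 and by the DESeq2 Wald test), with a median of 5.04, or 3.11 with TMM scaling alone. mt:CoIII, a subunit of cytochrome c oxidase, was at 65894, 89510 and 67034 adjusted CPM in T2 and between 379 and 8238 elsewhere, the highest of these in T1, a log2 difference of 5.47 (SE 0.11; edgeR adjusted p = 9.7e-41). Without any adjustment, the 37 mitochondrially encoded genes took 6.67%, 6.91% and 6.92% of the reads in genes in T2 and 0.429% to 7.21% in the others, with a median of 1.59%. On that scale a T1 library was above all T2 libraries, and T3 lay between 0.429% and 0.876%.

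In the same unadjusted shares, cytosolic ribosomal protein genes took 0.208%, 0.148% and 0.159% of T2 reads and 0.399% to 2.16% in the others. Nuclear genes of the respiratory chain took 0.439%, 0.340% and 0.361% in T2 against 1.14% to 4.72%. Proteasome genes took 0.0107%, 0.0121% and 0.0110% in T2 against 0.127% to 0.256%. These groups did not overlap. On the adjusted scale the sums differed from this for cytosolic ribosomal proteins and for nuclear genes of the respiratory chain. The 83 tested cytosolic ribosomal protein genes summed to 12153, 11529 and 8632 adjusted CPM in T2, inside the range of 4620 to 13226 in the others and above their median of 7226. The 79 tested nuclear genes of the respiratory chain summed to 24527.5, 24718.2 and 18708.9 adjusted CPM in T2. These sums lay inside the range of 10220 to 29179.1 in the others, whose median was 21006.7. Proteasome genes summed to 610, 873 and 566 adjusted CPM against 1301 to 2148, still without overlap. Depth, exon length and mitochondrial read share all moved with T2 in these libraries, and their part in the lower counts was not tested.

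**Figure D5:**
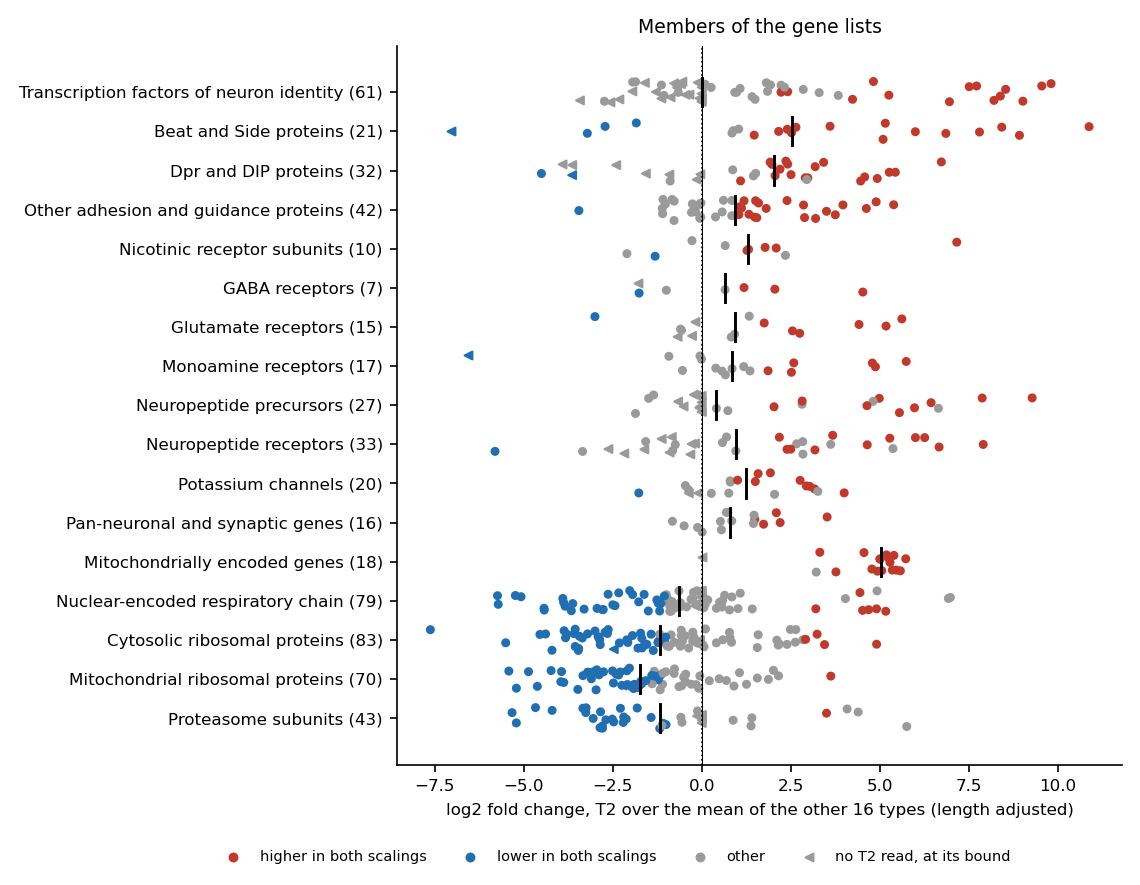
Each point is a tested gene of a list, placed by its length-adjusted log2 fold change of T2 over the mean of the other 16 types, with the number tested in brackets and the list median as a black bar. Red and blue mark genes higher or lower in both scalings, and triangles mark genes without a T2 read at their limit (0 where that limit is not below the other types). Beat, Dpr and mitochondrially encoded genes lay mostly to the right, and ribosomal and proteasome genes mostly to the left.

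Markers of other cells were at low or moderate levels. The summed level of 11 glia markers was 739, 892 and 593 adjusted CPM in T2 and between 71.4 and 35357 elsewhere, with a median of 173, and wrapper and e had no T2 read. Of these markers 2 were higher in both scalings, Tret1-1, a sugar transporter, at 523, 527 and 460 adjusted CPM, and repo, the defining glial factor, at 3.37, 36.7 and 13.7. Their share is close to the 16.6% of all genes. The repo call was lost without T2 library 2. The 12 photoreceptor markers summed to 586, 626 and 666 adjusted CPM in T2 against 96.5 to 1464, and ninaE, the main opsin, had no T2 read, nor had ninaC, Arr1, Arr2 and Hdc. Of these markers 1 was higher in both scalings, trpl, a channel of phototransduction, beside 16.6% of all genes. The trpl call rested on 11 reads of T2 library 1 alone and was lost with the TMM level.

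Hemocyte markers summed to 89.3 to 137 adjusted CPM in T2 against 41.4 to 140. None of 5 was called by edgeR or the DESeq2 Wald test, and 1 was higher at an unadjusted p under 0.05. Of 8 muscle markers, which summed to 97.7 to 150 against 68.7 to 228, 2 were higher in both scalings, up and sls. Beside this stand 16.6% of all genes. With TMM scaling alone 4 muscle markers were higher, while none was called without T2 library 1. The 4 trachea markers summed to 6.25 to 12.5 against 0.0545 to 228. Fat body and yolk markers summed to 9.68 to 30.6 adjusted CPM against 0.525 to 11.1. Of 5 tested, 2 were higher in both scalings, Yp1 and apolpp, beside 16.6% of all genes. Without T2 library 1 the count was 1, and Yp1 changed sign. Of 12 heat shock genes 2 were higher in both scalings, Hsp70Bb and Hsp70Bc, near-identical copies between which reads cannot be placed with certainty. That share is close to the 16.6% of all genes, and TMM scaling alone also called 2 lower. Hsp70Bb was at 292, 168 and 332 adjusted CPM against at most 322. The part of other cells or of stress in the results above was not tested.

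T3, which resembles T2 in shape, differed from it in many genes. Of 12569 genes 2932 (23.3%) were higher and 1603 (12.8%) lower in T2 than in T3, with 1873 (14.9%) and 1470 (11.7%) in both scalings. Without T2 library 1 the lower counts were 807 and 669. This comparison shares the T2 libraries, and T3 is also 1 of the 16 types above. The markers acj6, beat-Ic and nAChRalpha6 had log2 differences between T2 and T3 of 0.85, 0.80 and 0.23, all below the threshold of 1. That of beat-Ic was -0.013 with the TMM level, and ChT had 2.68 (SE 0.31; edgeR adjusted p = 2.8e-10).

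Genes that separated the pair most included members of the same family. beat-Ia was at 1.33, 2.22 and 2.25 adjusted CPM in T3 far below T2, with a log2 difference of 10.26 (edgeR adjusted p = 2.4e-28), and beat-Va had no read in T3. beat-IIa went the opposite way, with a mean of 582 adjusted CPM in T3 and no read in T2, which was at least 906-fold lower (edgeR adjusted p = 4.2e-18). By the rule for this pair, otk, an atypical receptor kinase, CG17777 and CG14142 were the other genes most above T3. Ac78C, an adenylyl cyclase, Dh44-R1, a diuretic hormone receptor, and lncRNA:CR43126 had no T2 read and were at least 961-fold, 282-fold and 396-fold lower than in T3.

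Among the factors of identity, TfAP-2, pdm3 and SoxN were higher in T2 than in T3, by log2 differences of 5.20, 7.32 and 8.61. erm, at 0, 5.33 and 12.1 adjusted CPM in T2 and a mean of 155 in T3, was lower by a log2 difference of -6.53 (edgeR adjusted p = 3.5e-09). Gad1 had a mean of 0.471 adjusted CPM in T3, and its log2 difference was 8.63 (edgeR adjusted p = 3.8e-14). Tbh, at 408 adjusted CPM in T3, differed by -0.01 and was not called.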

How the data were processed

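RNA from sorted adult optic lobe neurons of 17 types was sequenced with SMART-Seq v4 and Nextera XT, per the labels' protocols. The submitters' processing notes name BDGP6 as the build and list HTSeq 0.6.1, STAR 2.5.2 and Trimmomatic 0.32. The authors deposited raw read counts per gene for 17558 identifiers, without normalization. The 5 summary lines of the table are not genes and were left out; reads in no gene were 40.5% to 49.2% of a library. How strand was treated in counting is not given in the sources used here. The kits used carry no strand information, which leaves overlapping antisense genes uncertain. A gene name table gave symbols for 17251 identifiers, and Ensembl annotation gave exon lengths for 17252.

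Counts were fitted with edgeR 4.0.16 in R 4.3.3 over 57 libraries and 19 groups after filterByExpr. The offset of each library was its size plus a robust loess curve (span 0.5) of its log2 CPM deviation on log2 exon length, drawn from 6297 genes with at least 10 CPM. Alternatives used TMM, DESeq2 1.42.0, and TMM as the level on top of the length curve ("the TMM level"). Figures were drawn with matplotlib 3.10.9. The fit was also run on simulated counts, and the outcome is not given or relied on here. Counts of T2 libraries differed by more than counting noise, so none was merged with another as a duplicate deposit. This does not show that they are separate biological samples.

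The members and gene lists were chosen with earlier results of these data known. Named genes are the 4 markers, the 12 highest and 10 lowest by fold change under the conditions given, up to 4 members of each list called in both scalings with the largest fold change, listed factors above all 48 libraries, and 4 genes each way against T3. Further list members were named for their role after their values were seen. Some listed genes are not analysed here.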

Additional observations from a re-analysis of the deposited data

How the results depend on the processing

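Against the other 16 types, the number of higher genes lay between 2131 and 3656 under all alternatives, beside 3098. The 2131 came from a stricter filter, which tested 6424 genes in place of 12569. Lower genes, 1543, numbered 2823 with TMM scaling alone, 2485 with the TMM level, 2883 with DESeq2 size factors, and 844 to 1518 with a T2 library left out. Calls in both scalings numbered 1382 to 2010 higher and 732 to 1409 lower with a T2 library left out. Among the 6424 genes of the stricter filter they numbered 1332 higher and 1711 lower. Against T3, lower genes, 1603, numbered 3027, 2606 and 3053 under the same 3 scalings and 807 to 1561 with a T2 library left out, and in both scalings 669 to 1436. Among the fits with a T2 library left out, the lowest count was each time without T2 library 1. T2 library 1 alone was an alternative added after the data were seen, and there the spread came from the other groups. Its median log2 fold change over all genes against the 16 types was -0.93, beside -0.35.

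Library numbers did not pair the samples: 48 correlations of deviations between T2 and same-numbered libraries lay between -0.044 and 0.057. With the library number as a replicate block, 3104 genes were higher and 1552 lower against the 16 types, and 2929 and 1606 against T3. Over 181 genes named against the 16 types and 21 against T3, 3068 of 3174 values kept direction and side of the adjusted p threshold. Of the rest, 68 ceased to pass it, 24 came to pass it and 14 changed sign. The fold change threshold was not part of this count. The 68 therefore include values of genes that were not called, such as brp, and beat-Ic against T3. With a T2 library left out, values ran from -2.68 to 8.88 for eyg, -2.75 to 9.57 for AstA, -2.86 to 6.97 for RYa-R, -4.22 to 4.50 for trpl, -5.39 to 6.64 for Yp1, -3.99 to 6.48 for up, -5.44 to 5.41 for UQCR-11L, -3.07 to 7.31 for salr and -4.95 to 5.61 for svp. The negative values are those without T2 library 1, where no T2 read was left. The other sign changes were na at -0.78, elav at -0.13 and, against T3, beat-Ic at -0.013 with the TMM level, and brp at 0.80 with TMM scaling alone and 0.89 with DESeq2 size factors. A correction for GC content was not run, since no genome sequence was used here. Depth limits what a missing read shows in T2.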
